A study of Equus caballus with 6 samples.

Results

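In testes of the Mongolian horse, 144813 small RNA sequences began with A and did not have A at position 10, out of 4936717 distinct sequences, all 25 to 32 nt long, in a table of called piRNAs. They were picked by their letters alone, so neither their abundance nor their length nor the other bases entered the choice. They made up 2.93% of the distinct sequences of the table and 299482 of its 17914237 reads (1.67%). The libraries came from whole mature testis (3 libraries) and whole immature testis (3 libraries) of Mongolian horses that carried no stated treatment or allele. No age and no stage of spermatogenesis is stated in the labels, and no label says that each library came from an animal of its own, so the p-values below measure the spread between these libraries. The table held 4139452, 4032042 and 4550970 reads in mature testis and 1382083, 2347351 and 1462339 reads in immature testis, and all CPM values below are counts scaled to these totals. In whole testis, fewer cells of a type and less RNA per cell cannot be told apart.

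Animal germ cells hold piRNAs, small RNAs that lead PIWI proteins to transposons and some other transcripts, which are then silenced. Primary piRNAs, cut from long single-stranded precursors, mostly begin with U, which the file writes as T. Secondary piRNAs arise when a PIWI protein slices a target, and because the cut lies opposite a fixed position of the guide, they tend to carry A at position 10 and to overlap the guide by 10 nt at their 5′ ends. The sequences described here carry neither mark.

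The most abundant of them fell into few families. Sequences that shared their first 20 nt were taken as 1 family. The leading sequence of each of the 10 families with the highest mean CPM is shown in that order. A ranking by summed reads would give another list. Capitals mark the 20 nt that define the family.
uniq_4993600: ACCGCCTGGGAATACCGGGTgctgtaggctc
uniq_173892: ATCGATGTGGTGATGCTGTGctctcc
uniq_249099: ACAGAGAGTTTTGTCTGCTGcctggc
uniq_4903980: ACTTGATGATGAGATAAGATctgatg
uniq_4539102: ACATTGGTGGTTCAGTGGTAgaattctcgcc
uniq_1856374: ACAGAAACTGTGAGATAATAaatgtgtgtt
uniq_3024759: AGGTAAACGTAGTGCTTCTGgtccct
uniq_2607045: AAAAGTGATGTCATCTTCCTactgagg
uniq_325728: AACCCTGATGATGGAGCTTTtcactgagc
uniq_2522538: ATCAGTGATGACTGCTGGTGgcgtatgagc
The file gives these sequences a number and no gene, and no name is given to them here. Immature library 1 stood apart in some of the values below: it held 10 sequences that the other libraries nearly lacked, and where leaving it out moves a ratio below by over 1.5 times or ends a call, the value without it is given too.

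Sequences that began with A and lacked A at position 10 took a smaller share of the piRNA pool in mature testis than in immature testis. Their share of all reads was 1.23%, 1.26% and 1.25% in the mature libraries, against 3.18%, 2.35% and 2.85% in the immature libraries. The means were 1.25% ± 0.0131 in mature testis and 2.79% ± 0.414 in immature testis (SD, n = 3 each, exact two-sided permutation p = 0.1). With 3 against 3 libraries, 0.1 is the smallest p this test can give. The 2 groups did not overlap, and the 95% Wilson intervals reached at most 0.0292 percentage points to either side. The reads carry no molecular identifiers and PCR copies cannot be told from separate molecules, so such intervals cover counting error only.

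The share of distinct sequences differed less. It was 2.50% ± 0.0817 in mature testis and 2.84% ± 0.209 in immature testis (SD, n = 3 each, exact permutation p = 0.1). Among sequences with at least 2 reads over the 6 libraries it was 1.84% in mature testis and 1.86% in immature testis (n = 3 each, exact permutation p = 1). The set was sparse: 84.6% of its sequences had 1 read in all libraries together, against 76.7% of all other sequences. Among sequences without A at position 10 that share was 82.8% for C-starting, 81.4% for G-starting and 76.1% for T-starting ones. With A at both position 1 and position 10 it was 80.7%. Of the 144813 sequences, 2279 had at least 10 reads, 177 had at least 100, and 369 were found in all 6 libraries. A further 2453 were found in all 3 mature libraries and in no immature one, and 582 in all 3 immature libraries and in no mature one. The same counts were not made over the whole table, and the mature totals were larger. The 2453 and the 582 therefore describe no trait of the set. A sequence with 0 reads may still have been present at the level of 3 reads, or 0.725, 0.744 and 0.659 CPM in the mature libraries and 2.17, 1.28 and 2.05 CPM in the immature libraries.

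The size of the difference depended on which sequences the set was read against. Per 100 reads that began with T and lacked A at position 10, there were 1.96 ± 0.0234 reads of the A-starting set in mature testis and 5.23 ± 0.676 in immature testis (SD, n = 3 each, exact permutation p = 0.1). Per 100 reads that began with C and lacked A at position 10, there were 51.1 ± 1.90 in mature testis and 76.3 ± 2.53 in immature testis (n = 3 each, exact permutation p = 0.1). Against the G-starting reads the ratio ran the other way, with 62.9 ± 17.5 per 100 in mature testis and 23.97 ± 7.25 in immature testis (n = 3 each, exact permutation p = 0.1). Set against reads with A at both position 1 and position 10, there were 109 ± 6.63 per 100 in mature testis and 122 ± 13.6 in immature testis, and the groups overlapped (exact permutation p = 0.2, n = 3 each).

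Reads of the A-starting set were longer in mature testis. Sequences of 29 to 32 nt made up 62.9%, 59.3% and 59.8% of its reads in the mature libraries, against 27.7%, 31.4% and 33.3% in the immature libraries. The means were 60.6% ± 1.97 in mature testis and 30.8% ± 2.86 in immature testis (SD, n = 3 each, exact permutation p = 0.1). Lengths of 26 and 27 nt held 30.6% ± 1.86 in mature testis and 56.4% ± 2.40 in immature testis (n = 3 each, exact permutation p = 0.1). In mature testis the commonest single length was 29 nt, with 21.1% ± 2.12 of the reads against 10.9% ± 0.140 in immature testis. In immature testis it was 27 nt, which held 16.6% ± 1.24 of the reads in mature testis and 29.8% ± 1.41 in immature testis. The shift held with each distinct sequence counted once, at 53.3% of 29 to 32 nt in mature testis and 24.9% in immature testis. It was not particular to this set. Among T-starting reads without A at position 10 the share was 71.5% in mature testis and 29.3% in immature testis. It was 62.9% and 27.4% among C-starting ones, and 64.8% and 26.5% among those with A at both positions. Among G-starting reads, which were concentrated in few sequences as given above, it ran the other way, at 73.7% in mature testis and 85.7% in immature testis.

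Compared with the other sets of the same libraries, the share of 29 to 32 nt was lower than among G-starting sequences in 6 of 6 libraries (exact sign-flip permutation test, adjusted p = 0.0625 over 16 comparisons). The gap was unequal, with a mean of -13.0 points in the mature libraries and -54.9 points in the immature libraries. It was not computed without the few sequences that dominated the G-starting reads of immature testis. Against sequences with A at position 1 and 10, C-starting and T-starting sequences, the difference changed sign between libraries. In all 3 mature libraries the A-starting set held less of 29 to 32 nt than the T-starting set, with differences of -9.47, -12.4 and -10.6 points. This split by group was not tested.

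At position 10, where the choice bars A, the reads carried G most often. G stood there in 43.1% ± 1.29 of the reads in mature testis and 47.1% ± 1.08 in immature testis (SD, n = 3 each, exact permutation p = 0.1). C stood there in 21.9% ± 0.720 in mature testis and 17.4% ± 0.740 in immature testis (n = 3 each, exact permutation p = 0.1). The groups overlapped for T, which stood there in 35.0% ± 0.574 in mature testis and 35.5% ± 0.442 in immature testis (n = 3 each, exact permutation p = 0.3). With the 100 leading sequences of each library left out, G stood there in 36.5% in mature testis and 38.8% in immature testis, and with each distinct sequence counted once in 35.4% in mature testis and 37.1% in immature testis, both with the groups apart. Without the 10 leading families it was 38.8% in mature testis and 38.6% in immature testis (n = 3 each, exact permutation p = 0.8). That alternative was chosen after the data were seen. Counted once per distinct sequence, T was the commonest base at position 10, at 38.0% in mature testis and 39.2% in immature testis.

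Position 2 was T in 14.4%, 14.5% and 14.2% of the reads in mature testis, against 24.9%, 19.7% and 18.4% in immature testis. The means were 14.4% ± 0.114 in mature testis and 21.0% ± 3.45 in immature testis (SD, n = 3 each, exact permutation p = 0.1). The uniq_173892 family, which has T there, held 4115 of the 43906 reads of the set in immature library 1. Without immature library 1 the immature mean was 19.02%. Without the 10 leading families the values were 15.1% in mature testis and 18.2% in immature testis. G at position 2 was the more frequent base in mature testis, at 30.9% ± 1.35 against 22.7% ± 1.27 in immature testis.

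The reads were more concentrated in immature testis. The 100 most abundant sequences of each library held 18.5% ± 0.627 of the reads of the A-starting set in mature testis and 24.7% ± 2.42 in immature testis (SD, n = 3 each, exact permutation p = 0.1). The 10 leading families alone held 11.4%, 11.8% and 9.995% in the mature libraries, against 20.4%, 19.4% and 19.1% in the immature libraries. Without them the 100 most abundant held 12.3% in mature testis and 10.9% in immature testis, a difference in the other direction (exact permutation p = 0.4, n = 3 each).

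The uniq_4993600 family was the most abundant. It had 495, 658 and 437 CPM in the mature libraries, against 1161, 1683 and 2838 CPM in the immature libraries. Every immature library stood above every mature one, and the mean was 3.57 times as high in immature testis (530 ± 114 CPM in mature testis and 1894 ± 858 CPM in immature testis, SD, n = 3 each, exact permutation p = 0.1). The family held 58 sequences, of which 80.5% of the reads were 31 nt long.

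The uniq_173892 family had 108, 140 and 90.7 CPM in the mature libraries, against 2977, 953 and 879 CPM in the immature libraries. Immature library 1 stood far above the other immature libraries. The mean was 14.2 times as high in immature testis (113 ± 24.8 CPM in mature testis and 1603 ± 1191 CPM in immature testis, SD, n = 3 each, exact permutation p = 0.1), and 8.13 times as high without immature library 1. The same stretch also appeared with other 5′ ends. Sequences that began 6 nt upstream had 611, 751 and 880 reads in mature testis and 4503, 3957 and 2538 reads in immature testis. Of all reads that overlapped the family within 6 nt, 35.6% in mature testis and 34.8% in immature testis began at its own first base. A G-starting family that began 1 nt further upstream lay outside this window. It had 467, 545 and 321 reads in mature testis and 4999, 3676 and 2256 reads in immature testis, so with it these shares would be lower.

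Among the next 3 families by abundance, uniq_249099 averaged 45.4 ± 25.6 CPM in mature testis and 538 ± 221 CPM in immature testis, and uniq_4903980 averaged 31.1 ± 9.30 CPM in mature testis and 424 ± 133 CPM in immature testis (SD, n = 3 each, exact permutation p = 0.1 for each). The groups did not overlap for either family. The uniq_249099 family was spread over 196 sequences of 25 to 32 nt, while 99.2% of the reads of the uniq_4903980 family were 26 nt long. The uniq_4539102 family did overlap between the groups. It had 181, 42.7 and 66.6 CPM in the mature libraries, against 287, 305 and 168 CPM in the immature libraries (exact permutation p = 0.2, n = 3 each). Its mean was 2.62 times as high in immature testis, and 4.64 times as high without mature library 1.

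The uniq_1856374 and uniq_3024759 families stood higher in mature testis. The uniq_1856374 family had 347, 264 and 292 CPM in the mature libraries, against 20.3, 56.2 and 43.1 CPM in the immature libraries, and was 7.56 times as high in mature testis. The uniq_3024759 family had 173, 222 and 280 CPM in the mature libraries, against 15.9, 54.1 and 48.6 CPM in the immature libraries, and was 5.69 times as high in mature testis. Both kept the groups apart (exact permutation p = 0.1 for each, n = 3 each). Other starts of the same stretch were frequent for the uniq_1856374 family: 28.9% of its overlapping reads in mature testis and 27.1% in immature testis began at its own first base.

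The other 3 leading families were low in mature testis. The uniq_2607045 family averaged 15.2 ± 3.70 CPM in mature testis and 237 ± 21.5 CPM in immature testis. The uniq_325728 family averaged 14.98 ± 3.998 CPM in mature testis and 230 ± 32.2 CPM in immature testis. The uniq_2522538 family averaged 6.41 ± 3.07 CPM in mature testis and 237 ± 119 CPM in immature testis (SD, n = 3 each, exact permutation p = 0.1 for each of the 3). The last of these was 37.0 times as high in immature testis, the widest gap of the 10, and 26.5 times as high without immature library 1. For these 3 families nearly all overlapping reads shared 1 start, at 89.2% to 98.8% in mature testis and 89.8% to 99.1% in immature testis.

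Over all 105181 families of the A-starting set, 126 averaged at least 10 CPM. Of these, 40 (31.7%) had every mature library above every immature one, against 71.7% of all 9567 families of the table at that level. In 76 of the 126 (60.3%) every immature library stood above every mature one, against 23% of all families.

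Some leading sequences carried short letter strings near their ends. The letters TGATGA within bases 1 to 15 and CTGA within the last 10 bases were counted on the strand as read, and were chosen after the leading families had been seen. As background, they are the letters of box C and box D, the conserved elements of C/D box small nucleolar RNAs, which guide the methylation of ribosomal RNA. Among the 10 leading sequences, TGATGA was found in 3, CTGA in 3, and both in 2. The pair of sequences with both strings is shown with the strings in capitals.
uniq_4903980: actTGATGAtgagataagatCTGAtg
uniq_325728: aacccTGATGAtggagcttttcaCTGAgc
The match describes these letters and does not assign the sequences to an RNA.

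Sequences with both strings took a smaller share in mature testis. They held 0.869%, 1.39% and 1.04% of the reads of the A-starting set in the mature libraries, against 5.51%, 4.15% and 4.59% in the immature libraries. The means were 1.10% ± 0.265 in mature testis and 4.75% ± 0.698 in immature testis (SD, n = 3 each, exact permutation p = 0.1). The strings were chosen after the leading families were seen, and the families of the 2 leaders with both were themselves higher in immature testis. The difference thus in part restates those families, and it was not computed without them. Counted once per distinct sequence, the shares were 0.593% in mature testis and 1.14% in immature testis (n = 3 each, exact permutation p = 0.1). In all, 886 of the 144813 sequences (0.612%) held both. Among C-starting sequences without A at position 10 the shares of reads were 0.525% in mature testis and 1.74% in immature testis. Among G-starting sequences they were 1.16% in mature testis and 2.09% in immature testis, and among T-starting ones 0.146% in mature testis and 0.658% in immature testis. Among sequences with A at both positions they were 0.0666% in mature testis and 0.110% in immature testis.

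Differences of single sequences were tested on the whole table with edgeR's quasi-likelihood test, and p-values were adjusted by the Benjamini-Hochberg method over all 31788 sequences that passed its filter on low counts. Of the 144813 A-starting sequences, 406 passed, and they held 22.2% to 24.5% of the set's reads in the mature libraries and 28.1% to 29.5% in the immature libraries. A sequence that passed only through the group in which it is abundant had to differ, so the counts below describe the 406 and not the whole set. With TMM scaling, 14 of the 406 (3.45%) were higher in mature testis at an adjusted p under 0.05, against 8.41% of all sequences tested. A further 261 (64.3%) were higher in immature testis, against 21.9% of all sequences tested.

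The direction of calls depended on the scaling. TMM factors were 2.38 to 2.62 in the mature libraries and 0.360 to 0.442 in the immature libraries. With library totals in place of TMM, 145 of the 406 (35.7%) were higher in mature testis, against 77.7% of all sequences tested, and 255 (62.8%) were higher in immature testis, against 20.3%. Sequences higher in mature testis thus made up 5.09% of the set's calls with TMM and 36.2% with library totals. Over all sequences tested, the log2 fold change of mature over immature testis had a median of 0.62 with TMM and 3.15 on the totals, a shift of 2.52. The median of the 406 was -5.05 with TMM and -2.47 with library totals, so it lay below that of all sequences tested on both scales. On both scales together, 14 sequences were called higher in mature testis and 255 in immature testis.

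The lengths of the sequences called in each direction are given as a description. The reads of the whole set were longer in mature testis, and 11 of the 14 called higher there had 0 immature reads. A contrast in length between the calls thus in part restates that shift. End variants of a family count as separate sequences here, and the lengths of other called sequences of the table were not computed. Among the 261 called higher in immature testis, 33.7% were 29 to 32 nt long and 48.3% were 26 or 27 nt long. Among the 14 called higher in mature testis, 85.7% were 29 to 32 nt long, and among the 131 that were not called, 71.8% were. Among all 406 tested, 47.8% were of these lengths. None of the 131 had a lower mean CPM in mature testis, so they are not a neutral group. The 261 sequences held 9.04% ± 1.49 of the set's reads in mature testis and 28.2% ± 1.14 in immature testis. The 14 sequences held 1.25% ± 0.104 in mature testis and 0.00633% ± 0.00154 in immature testis.

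The sequences called higher in immature testis with the highest level there came from 4 of the leading families. uniq_173892 itself had 45.2, 55.1 and 32.3 CPM in the mature libraries, against 1428, 381 and 341 CPM in the immature libraries. All immature libraries stood above all mature ones, with immature library 1 far above the others. Its log2 fold change was -6.70 ± 0.78 (SE, edgeR adjusted p = 8.83e-17) with TMM and -4.02 (edgeR adjusted p = 4.93e-07) with library totals. Its mean CPM was 16.2 times as high in immature testis, and 8.17 times as high without immature library 1. uniq_173724, which is 1 base longer, and uniq_4579684, which has another last base, were also among the 10, at 13.6 and 14.0 times the mature mean, and at 6.90 and 9.17 times without that library.

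uniq_4993600 had 161, 213 and 146 CPM in the mature libraries, against 445, 511 and 921 CPM in the immature libraries, and the groups did not overlap. Its log2 fold change was -4.43 ± 0.70 (SE, edgeR adjusted p = 1.20e-09) with TMM and -1.85 (edgeR adjusted p = 0.0083) with library totals. uniq_4903980 had 12.3, 17.6 and 14.7 CPM in the mature libraries, against 191, 127 and 245 CPM in the immature libraries, 12.6 times the mature mean. uniq_4539102 had 150, 24.1 and 45.9 CPM in the mature libraries, against 140, 219 and 125 CPM in the immature libraries. Its groups overlapped through mature library 1. It was called with TMM and not with library totals (log2 fold change -1.14, edgeR adjusted p = 0.0867), and the immature mean was 2.20 times the mature one, or 4.61 times without mature library 1.

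Of the 14 sequences called higher in mature testis, 11 had 0 reads in all immature libraries, and the other 3 had at most 4. The 5 with the highest level in mature testis are shown, as the most abundant on that side.
uniq_4498220: aagaagggctgaagatttcagacagctgtg
uniq_3218686: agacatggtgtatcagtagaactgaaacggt
uniq_1853239: acagacagacaggaactcagactctcagt
uniq_3746867: aaatagagactgttgaaggatgaactcaac
uniq_58669: atttgaaattggcactgttctggaaagcc
All 5 are 29 to 31 nt long.

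uniq_4498220 had 68, 178 and 88 reads in the mature libraries and 0, 0 and 0 reads in the immature libraries. Its mean of 26.6 CPM in mature testis was at least 46.1-fold higher than in immature testis, with 3 reads over the immature libraries together (0.578 CPM) taken as the floor (edgeR adjusted p = 2.15e-05 with TMM). uniq_3746867 had 67, 49 and 93 reads in the mature libraries and 0, 0 and 0 reads in the immature libraries, at least 28.1-fold higher by the same floor (edgeR adjusted p = 0.000549). Both bounds are on library totals, where the median log2 fold change of all sequences tested was 3.15. Both sequences kept their call under each of the 13 alternatives run for them.

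uniq_3218686 had 109, 86 and 130 reads in the mature libraries and 0, 2 and 2 reads in the immature libraries. Its summed reads scaled to the library totals were 33.2 times as high in mature testis, with a 95% exact counting interval of 12.8 to 122. With TMM, which gave the calls, its log2 fold change was smaller, at 2.46 (edgeR adjusted p = 0.0156). Its ratio of mean CPM moved to 59.6, against 34.3 with all libraries, when immature library 3 was left out. uniq_58669 had 74, 58 and 65 reads in the mature libraries and 0, 2 and 0 reads in the immature libraries. Its ratio on the totals was 40.2 with an interval of 10.98 to 334, and its log2 fold change with TMM was 2.77 (edgeR adjusted p = 0.0225). Its call was lost without immature library 3 (edgeR adjusted p = 0.0809) and after thinning of all libraries to the smallest total (edgeR adjusted p = 0.117). uniq_1853239 had 88, 42 and 110 reads in the mature libraries and 2, 0 and 1 reads in the immature libraries. Its ratio on the totals was 32.6 with an interval of 11.04 to 159, and its log2 fold change with TMM was 2.34 (edgeR adjusted p = 0.0371). Its call was lost without mature library 1, mature library 3, immature library 2 or immature library 3 (edgeR adjusted p = 0.0693, 0.0797, 0.0799 and 0.0592). It was also lost after thinning (0.162) and with a filter of 10 CPM in 3 libraries (0.107), and its ratio of mean CPM was 54.4 without immature library 1, against 26.2 with all libraries.

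The tenth most abundant sequence of the set, uniq_1856374, was called or not according to the scaling. It had 697, 563 and 734 reads in the mature libraries and 15, 54 and 26 reads in the immature libraries, or 156 ± 14.98 CPM in mature testis and 17.2 ± 6.10 CPM in immature testis (SD, n = 3 each). The groups did not overlap. With TMM its log2 fold change was 0.60 (edgeR adjusted p = 0.475), close to the median of all sequences tested, with upper quartile factors it was 1.44 (edgeR adjusted p = 0.0274), and with library totals it was 3.17 (edgeR adjusted p = 1.43e-05).

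Part of the set consisted of the A forms of more abundant sequences. A sequence was counted as a first-base variant when the same sequence with T, G or C at position 1 had at least 10 times its reads in the same library. Such variants held 7.04%, 6.00% and 6.90% of the set's reads in the mature libraries, against 1.10%, 1.56% and 0.769% in the immature libraries. The means were 6.65% ± 0.567 in mature testis and 1.14% ± 0.395 in immature testis (SD, n = 3 each, exact permutation p = 0.1). With at least 100 times in place of 10 times the shares were 2.10% in mature testis and 0.9995% in immature testis, and the groups stayed apart. At 10 times there were 1752, 1732 and 2140 such sequences in the mature libraries and 65, 121 and 66 in the immature libraries. The mature libraries hold more reads, and when every library was thinned to the smallest of the totals the shares were 5.39% in mature testis and 1.12% in immature testis. Read from the other side, T-starting sequences without A at position 10 that had at least 100 reads in a library numbered 2604 to 3219 in the mature libraries and 152 to 272 in the immature ones. Their A forms, here with no limit on abundance, added up to 0.252 ± 0.0234 reads per 100 T-form reads in mature testis and 0.552 ± 0.144 in immature testis (SD, n = 3 each, exact permutation p = 0.1). The immature rate rested on few sequences, since only 12, 24 and 7 had an A form in those libraries. The share of T-starting sequences with an A form ran the other way, at 20.8%, 21.9% and 22.2% in the mature libraries and 7.59%, 8.82% and 4.61% in the immature libraries.

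The base that the abundant form carried differed between the groups, largely through 1 family. It was T for 83.6% ± 7.88 of the variant reads in mature testis and 13.0% ± 3.98 in immature testis, and G for 14.5% ± 7.88 in mature testis and 85.8% ± 4.50 in immature testis (SD, n = 3 each, exact permutation p = 0.1 for each). The uniq_4539102 family held 20.8%, 5.64% and 7.74% of the variant reads in the mature libraries and 82.4%, 83.3% and 76.9% in the immature libraries. Outside it, in a split made after the data were seen, the abundant form was T for 94.4% ± 0.264 of the reads in mature testis and for 50.6%, 79.2% and 73.0% in the immature libraries, which then had only 74 to 144 variant reads each. Variants were more frequent among the longer sequences of the set. They held 8.40% of the reads of 29 to 32 nt in mature testis and 3.12% in immature testis, and of the reads of 25 to 28 nt 3.93% in mature testis and 0.278% in immature testis. In immature testis most variant reads came from the uniq_4539102 family, of which 70.4% of the reads were 31 nt long. The split by length was not made without that family, so the immature contrast may rest on it. The same count among G-starting sequences gave 10.4%, 18.5% and 19.2% in the mature libraries and 0.274%, 0.0198% and 0.0200% in the immature libraries. Among C-starting sequences it gave 3.92% in mature testis and 0.359% in immature testis. Among T-starting sequences it gave 0.0198%, 0.0170% and 0.0210% in the mature libraries and 0.353%, 0.0479% and 0.0299% in the immature libraries.

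The most abundant first-base variant was uniq_4539102, the leader of the fifth family. It is shown beside its G form, with the first base in capitals.
uniq_4539102: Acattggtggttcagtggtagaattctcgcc
uniq_2076883: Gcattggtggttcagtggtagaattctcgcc
The A form had 622, 97 and 209 reads in the mature libraries and 194, 513 and 183 reads in the immature libraries. The G form had 31410, 3976 and 7689 reads in the mature libraries and 44883, 142086 and 52023 reads in the immature libraries. The A form amounted to 1.98%, 2.44% and 2.72% of the G form in the mature libraries and to 0.432%, 0.361% and 0.352% in the immature libraries. Mature library 1, which was high for the A form, was also high for the G form. uniq_3746867, called higher in mature testis above, was the A form of uniq_5153807, which begins with T and had 9363, 5612 and 12788 reads in the mature libraries and 73, 1 and 247 in the immature libraries. The A form was 0.716%, 0.873% and 0.727% of it in the mature libraries.

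A few A forms outnumbered the other form in a single library. Among the 10 first-base variants with the highest mean CPM, uniq_3510948 and uniq_7025106 did so in mature library 3, and uniq_5114935 did so in immature library 2, with 27 reads against 19 of its T form. The first of these pairs is shown with the first base in capitals.
uniq_3510948: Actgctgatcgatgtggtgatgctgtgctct
uniq_170669: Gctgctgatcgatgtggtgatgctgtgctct
The A form had 2, 4 and 197 reads in the mature libraries and 7, 4 and 1 reads in the immature libraries. The G form had 183, 190 and 126 reads in the mature libraries and 1959, 1231 and 610 in the immature libraries. In mature library 3 the A form thus reached 156% of the G form, while in the other 5 libraries it was 0.164% to 2.11%. uniq_7025106, which is shorter by 3 bases, had 65 reads in mature library 3 against 11 of its G form.

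Other sequences of the set had their 5′ end next to that of an abundant T-starting sequence. A sequence with T at position 1, its 5′ end 1 nt up- or downstream by an exact match of 23 nt, and at least 10 times the reads in the same library was found for 7.14% ± 0.682 of the set's reads in mature testis and 1.89% ± 0.290 in immature testis (SD, n = 3 each, exact permutation p = 0.1). The T-starting sequence lay upstream for 4.30% of the reads in mature testis and 1.06% in immature testis. It lay downstream for 3.09% in mature testis and 0.847% in immature testis. With at least 100 times in place of 10 times, the shares were 1.92% in mature testis and 0.132% in immature testis.

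Overlaps of 10 nt between 5′ ends, the geometry of secondary piRNAs, were counted without genome positions. A read had a partner when the reverse complement of its first 10 nt opened another sequence of the same library, and the mean share with the window shifted by 1 to 5 nt was subtracted. A partner of the A-starting set cannot begin with T, since position 10 is not A, while shifted windows have no such limit, so this difference is negative by construction: -21.6 ± 2.67 percentage points in mature testis and -23.1 ± 2.02 in immature testis (SD, n = 3 each, exact permutation p = 0.4). Partners were then limited to sequences that do not begin with T in both windows, a restriction added after the data were seen. Shifted windows that open with T still cannot match, which pushes this difference upward by construction, so its size is no measure of pairing. How far it is pushed may depend on the totals and base content of a library, which differ by group. It was computed at full totals only, so a comparison of the groups is not free of this effect. The restricted difference was 13.0 ± 1.16 points in mature testis and 11.1 ± 3.83 in immature testis (n = 3 each, exact permutation p = 0.6). Weighted by distinct sequences instead of reads, it was 9.97 ± 0.349 points in mature testis and 8.63 ± 0.402 in immature testis (n = 3 each, exact permutation p = 0.1). At 10 nt, 33.5% ± 1.17 of the reads in mature testis and 29.5% ± 6.43 in immature testis had a partner, against 20.4% ± 0.785 in mature testis and 18.4% ± 2.84 in immature testis in the shifted windows.

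The leading sequences often occurred with several last bases but lacked 1 of them. The leading 31 nt group is shown with its last base in capitals.
uniq_4993576: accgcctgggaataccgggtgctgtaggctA
uniq_4993600: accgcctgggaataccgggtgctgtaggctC
uniq_4993608: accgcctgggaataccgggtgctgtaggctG
Over all libraries the form that ends with A had 3035 reads, the form with C 5353 and the form with G 3048, and the form with T had 0. The second group, of 26 nt, follows.
uniq_4681453: atcgatgtggtgatgctgtgctctcA
uniq_173892: atcgatgtggtgatgctgtgctctcC
uniq_4579684: atcgatgtggtgatgctgtgctctcT
Here the form with A had 527 reads, the form with C 3922 and the form with T 889, and the form with G had 0.

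The missing base was common in the set. Of 185 groups of sequences with at least 100 reads that differed only in their last base, 91 had 3 last bases with at least 10 reads each, and in 29 of these (31.9%) the fourth base had 0 reads. Among T-starting groups the fourth base had 0 reads in 1054 of 7029 (14.99%). It had 0 reads in 19.1% of the C-starting groups, 22.0% of those with A at both positions and 33.3% of the G-starting ones. Whether any forms were removed before the table was made is not given in the sources used here. In the group of 27 nt that extends uniq_173892 all bases were found, with 522 reads for A, 2146 for C, 73 for G and 805 for T.

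One library held sequences that the others nearly lacked. In 15 sequences of the set with at least 20 reads, a single library held at least 90% of the summed CPM, and 10 of them were found in immature library 1. Each of these 10 differed from the first 20 nt of a more abundant family at position 4 and nowhere else in those 20 nt. The 3 with the most reads are shown, with the base at position 4, counted from the 5′ end, in capitals.
uniq_2968801: actGgatgatgagataagatctgata
uniq_6752235: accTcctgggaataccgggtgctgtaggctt
uniq_3041220: accGcatgatggaactgaggatctgagg
uniq_2968801 had 437 reads in immature library 1 and 2 in the other libraries together, and carried T4G relative to the uniq_4903980 family. uniq_6752235 had 224 reads there and 10 elsewhere, and carried G4T relative to the uniq_4993600 family. uniq_3041220 had 152 reads there and 3 elsewhere, and carried C4G relative to its family.

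The 10 sequences held 1211 reads, 2.76% of the set's reads in immature library 1. Reads with 1 mismatch at position 4 to a sequence with at least 10 times their reads made up 0.544% of the set in immature library 1 and 0.0384% to 0.0687% in the other 5 libraries. At the other positions from 2 to 24 the share was 0.0163% to 0.161% over all 6 libraries. The 5 single-library sequences of the mature libraries had no mismatch at position 4. What part these reads have in the other values of immature library 1 was read by leaving the 15 sequences out: the share of the pool was then 1.25% in mature testis and 2.76% in immature testis. None of the 15 was among the 406 sequences tested with edgeR.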

How the data were processed

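Small RNA libraries were made from 3 µg of total RNA each, per the labels' protocols. The authors deposited a table of read counts, whole numbers with no normalization, for each distinct sequence in each library, per the file headers and values. Per the submitters' processing notes, Bowtie was used. Genome build, trimming and piRNA calling: not given in the sources used here. Column totals count called piRNAs and do not give the sequencing depth. All 6 columns were used. Members and lists were chosen with earlier results of these data known. Shares were compared with exact permutation tests over libraries in Python 3.11.15 (numpy 2.4.6, pandas 2.3.3, scipy 1.17.1). Counts were tested on the whole table with edgeR 4.0.16 in R 4.3.3 (quasi-likelihood, TMM, filterByExpr defaults, Benjamini-Hochberg adjusted p under 0.05). DESeq2 1.42.0 was an alternative. Standard errors of log2 fold changes were taken as the absolute value over the root of the F statistic. Within-library comparisons used exact sign-flip tests, adjusted over 16. The first-base, shifted-end and 10 nt measures and the edgeR test were run on simulated data. The made set of sequences was far smaller than a library. It could not show how far the 10 nt difference is pushed by construction in these libraries. Named sequences were the 10 called in each direction with the highest mean CPM in that group and the 10 most abundant. Named families were the 10 with the highest mean CPM over the 6 libraries. Libraries of one group differed by more than counting noise (3.09 to 13.1 for the chi-square of a sequence), and each was counted as 1 sample.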

Additional observations from a re-analysis of the deposited data

How the results depend on the processing

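Share differences are given in percentage points, mature minus immature, and an exact permutation p of 0.1 was taken as the groups standing apart. Leaving out the 10 leading families, an alternative added after the data were seen, turned the G at position 10 difference to 0.203 and the 100 most abundant to 1.37, and moved T at position 10 to -3.10 and the 10 nt overlap to 6.17, both with the groups apart. Among sequences with at least 2 reads, T at position 10 was 1.40, the overlap -5.25 and the share of distinct sequences -0.0143. With each sequence counted once, T at position 10 was -1.20, the overlap 4.07 and the 100 most abundant -0.000538. Thinned to the smallest total, the overlap was 4.97. Members called higher in mature testis numbered 14, and 145 with library totals, 72 with upper quartile factors, 204 without the low-count filter, 4 at 10 CPM or more in 3 libraries, 3 after thinning and 4 with the replicate block. Members called higher in immature testis numbered 261, and 1254 without the filter, 89 at 10 CPM or more and 132 after thinning. DESeq2 called 16 and 261.

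Leaving out 1 library at a time gave -0.862 to -0.317 for T at position 10, 0.385 to 2.94 for the overlap, and 8 to 19 calls higher in mature testis, the 8 without immature library 1. It gave 316 to 355 calls higher in immature testis. The share of the pool ranged from -1.76 to -1.35, the share of 29 to 32 nt from 28.3 to 31.1 and first-base variants from 5.31 to 5.83. Same-numbered libraries did not deviate together (correlations 0.0201, -0.0674 and 0.00741). These correlations gave no sign of pairing by number and cannot exclude it. With the replicate block the calls higher in immature testis were 260, and 6 of the 10 sequences named as higher in mature testis lost their call: uniq_3218686, uniq_1853239, uniq_58669, uniq_3678506, uniq_4850261 and uniq_4858062 then had edgeR adjusted p of 0.0642 to 0.124. Without 1 library, uniq_3678506 lost its call for each immature library (0.0528 to 0.0563), uniq_4850261 for immature 1 and 2 (0.0506 and 0.0529) and uniq_4858062 for immature 2 (0.0501). With 3 pairs the sign-flip test cannot go below 0.25. Most members have 1 read, so the depth limits single-sequence statements to the 406 tested.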

Other observations

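A sequence of the set, uniq_3469454, had 670 reads (166 CPM) in mature library 2, against 2 and 1 reads in mature libraries 1 and 3, and 17, 14 and 9 reads in the immature libraries.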
